A study of Schmidtea mediterranea with 18 samples.

Results

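The 137 transcripts described here are the most abundant ones in whole planarians (*Schmidtea mediterranea*) that changed little after 4 weeks of *hippo* RNAi. Members averaged 1000 TPM or more over all 18 libraries, where TPM is a length-corrected abundance with a fixed sum per library. Of the 146 transcripts at that level, 9 were left out because their log2(mean TPM + 1) differed by 0.58 or more between *hippo (RNAi)* and *gfp (RNAi)* animals at 4 weeks, and 0 because of an assembly number listed in the first supplementary table of the study. The members are 0.328% of the 41745 transcripts in the table. The overall level and the 4-week contrast chose the members, so both are given below as descriptions without a test.

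RNA came from whole animals of the asexual BCN-10 clonal line. Treated *hippo (RNAi)* planarians were compared with *gfp (RNAi)* controls at 3 times (1, 3 and 4 weeks), giving 6 groups of 3 libraries, each made from pooled animals. Double-stranded RNA of the named gene was injected, and *gfp*, which planarians lack, served as the control. All groups were starved before the experiment, and the study describes the starvation as kept up during the injections, so animals of later weeks had been starved for longer. Treatment time and length of starvation cannot be told apart between weeks of 1 treatment. Libraries are named by the library codes of the labels: 252O, 253O and 254O were *hippo (RNAi)* and 249O, 250O and 251O *gfp (RNAi)* at 1 week, 266O, 267O and 260O were *hippo (RNAi)* and 257O, 258O and 259O *gfp (RNAi)* at 3 weeks, and 268O, 264O and 269O were *hippo (RNAi)* and 261O, 262O and 263O *gfp (RNAi)* at 4 weeks. Values for each group are given in that library order.

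In other animals *hippo* encodes a kinase at the head of a cascade that restrains the growth-promoting coactivator Yorkie. Planarians renew their tissues continuously from adult stem cells called neoblasts, so a change in cell production or differentiation can alter the cellular make-up of the whole animal. In poly(A) RNA of a whole animal a small number of transcripts usually makes up a large part of all molecules. Since TPM have a fixed total in every library, a transcript that takes a larger share leaves less for all others. In these bulk samples fewer cells of a type and less RNA per cell cannot be told apart. The transcripts carry assembly identifiers only. Gene names, sequences and functions of the members, and the *hippo* transcript itself, were not analysed here.

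The members took close to the same share of all TPM in both treatments at 1 week and a smaller share in *hippo (RNAi)* animals later. At 1 week their share was 32.13%, 31.72% and 32.11% in *hippo (RNAi)* libraries and 32.55%, 32.07% and 31.72% in *gfp (RNAi)* libraries, and the groups overlapped. At 3 weeks it was 31.11%, 32.02% and 31.51% in *hippo (RNAi)* libraries, against 32.94%, 32.76% and 33.22% in *gfp (RNAi)* libraries. At 4 weeks it was 30.62%, 30.52% and 31.09% in *hippo (RNAi)* libraries, against 32.64%, 32.82% and 32.70% in *gfp (RNAi)* libraries. Every *hippo (RNAi)* library lay below every *gfp (RNAi)* library of its week at 3 and at 4 weeks. The means at 1, 3 and 4 weeks were 31.99 ± 0.235%, 31.55 ± 0.454% and 30.75 ± 0.306% in *hippo (RNAi)* animals and 32.11 ± 0.418%, 32.97 ± 0.228% and 32.72 ± 0.0888% in *gfp (RNAi)* animals (SD, n = 3 each). The differences were -0.125, -1.42 and -1.98 percentage points at 1, 3 and 4 weeks. The share is a sum over transcripts chosen on these values and was not tested. An exact permutation test of 3 libraries against 3 could not go below a two-sided p of 0.1.

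**Figure D1:**
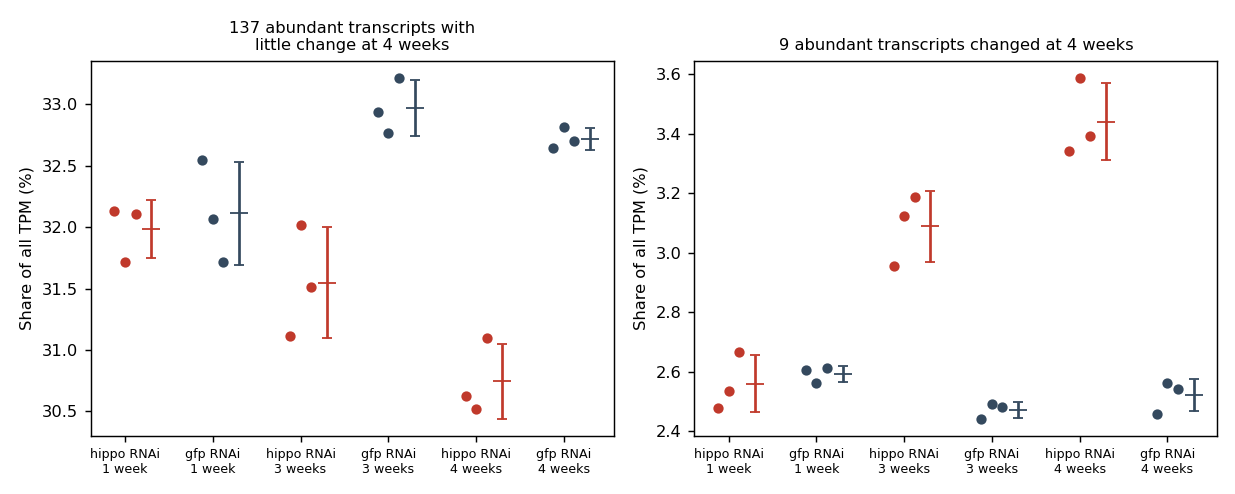
Share of all TPM (%) taken by the 137 abundant transcripts (left) and by the 9 equally abundant transcripts left out for their change at 4 weeks (right); points are libraries in the order given in the text, bars are the group mean ± SD (n = 3), and the vertical axes do not start at 0. The members' share is lower in *hippo (RNAi)* than in *gfp (RNAi)* libraries at 3 and 4 weeks, while that of the 9 left out is higher.

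The share also differed between weeks within a treatment. In controls it was 0.860 points higher at 3 weeks than at 1 week, and 0.608 points higher at 4 weeks than at 1 week, without overlap of the libraries in either case. Between 4 and 3 weeks the controls differed by -0.252 points with overlapping libraries. In *hippo (RNAi)* animals the share at 3 weeks differed from that at 1 week by -0.438 points, with overlap, and with all 146 transcripts of at least 1000 TPM by 0.0904 points. At 4 weeks the members' share differed by -1.24 points from 1 week and by -0.803 points from 3 weeks, without overlap. The gap of 1.42 points at 3 weeks therefore held a control share that was higher than at 1 week beside a *hippo (RNAi)* share whose libraries still overlapped those of 1 week.

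Other abundance classes differed as well. The 9 transcripts left out took 2.56%, 3.09% and 3.44% of all TPM at 1, 3 and 4 weeks in *hippo (RNAi)* animals, against 2.59%, 2.47% and 2.52% in *gfp (RNAi)* animals. With them included, all 146 transcripts of at least 1000 TPM took 34.64% in *hippo (RNAi)* and 35.44% in *gfp (RNAi)* animals at 3 weeks, a difference of -0.807 points. Part of the members' lower share is thus fixed by the rule, which took out 3 abundant transcripts that were higher and 6 that were lower at 4 weeks. Transcripts of 10 to 100 TPM took 27.54% in *hippo (RNAi)* against 26.42% in *gfp (RNAi)* animals at 3 weeks, a difference of 1.13 points, after 0.331 points at 1 week. Transcripts of 100 to 1000 TPM differed by -0.349 points at 3 weeks. In both of these classes the libraries of the treatments did not overlap at 3 weeks.

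The lower share at 3 weeks was the net of differences in both directions. Mean TPM was lower in *hippo (RNAi)* animals for 106 members, by -24651 TPM in sum, and higher for 31, by 10419 TPM in sum. The net was -14232 TPM. The 4 largest falls in TPM, in dd_Smed_v6_2_1_1 (-3183), dd_Smed_v6_20_0_1 (-2004), dd_Smed_v6_15_0_1 (-1161) and dd_Smed_v6_76_0_1 (-882), made up 29.3% of what the lower members lost. Without these 4 the other 133 members took 27.43% in *hippo (RNAi)* and 28.13% in *gfp (RNAi)* animals, a difference of -0.700 points in place of -1.42, and the libraries still did not overlap. The 4 were picked as the largest falls in this same comparison, so a smaller gap without them was fixed in advance. The 4 largest gains were those of dd_Smed_v6_1_0_1 (3220), dd_Smed_v6_34_0_2 (1975), dd_Smed_v6_3_0_1 (1581) and dd_Smed_v6_176_0_2 (586). They came to 7362 TPM in sum, against -7231 TPM for the 4 largest falls. At 1 week 82 members were lower and 55 higher, with a net of -1255 TPM. The 10 most abundant members took 9.96% in *hippo (RNAi)* and 10.16% in *gfp (RNAi)* animals at 3 weeks. They hold the 4 largest falls and the gains of dd_Smed_v6_1_0_1, dd_Smed_v6_34_0_2 and dd_Smed_v6_3_0_1, so their small net difference holds large changes in both directions. The other 127 took 21.59% in *hippo (RNAi)* and 22.81% in *gfp (RNAi)* animals, so most of the net difference at 3 weeks lay outside the leading 10. At 1 week these 127 already took 22.08% in *hippo (RNAi)* and 22.37% in *gfp (RNAi)* animals, without overlap of the libraries. The leading 10 then took 9.90% in *hippo (RNAi)* and 9.74% in *gfp (RNAi)* animals, with overlap. In controls 89 members were higher at 3 weeks than at 1 week and 48 lower, with a net of 8596 TPM, of which dd_Smed_v6_2_1_1 gave 3005.

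Among themselves the members spanned a wide range of levels. Their mean TPM ran from 1012 to 22222, with a median of 1457. Of the 137, 41 had at least 2000 TPM. The 2 highest held 13.2% of the members' TPM and the 10 highest 30.9%. Just inside the limit of 1000 TPM lay dd_Smed_v6_206_0_1 (1012) and dd_Smed_v6_367_0_1 (1015), and just outside it dd_Smed_v6_131_0_1 (990.7) and dd_Smed_v6_175_0_1 (979.6). For the limit on change at 4 weeks the nearest members were dd_Smed_v6_68_0_1 (-0.58 on the log2 scale) and dd_Smed_v6_1_0_1 (0.56), and the nearest transcripts left out were dd_Smed_v6_31_0_1 (-0.69) and dd_Smed_v6_340_0_1 (-0.74).

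Most members stayed abundant in each library. In every one of the 18 libraries 111 members stayed at or above 1000 TPM and 112 stayed among the 146 highest transcripts. Across the 6 groups the highest group mean was at most 1.5 times the lowest for 133 members, with a median ratio of 1.11 and a highest of 2.46. Spearman's rho between libraries of the same group, across members, was never below 0.969. Genes are not independent replicates, so these values are descriptions. Low ratios at 4 weeks were in part set by the rule.

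The members shared low assembly numbers, which the rule did not use to include them. The 137 transcripts carried 130 of the 28566 numbers in the table, from 1 to 884, and 119 members had a number of 300 or lower. Their median number was 138, against 11574 for all transcripts with at least 1 TPM. The 9 equally abundant transcripts left out lay in the same range, from dd_Smed_v6_9_0_1 to dd_Smed_v6_340_0_1. Low numbers were therefore not particular to the members. Only 20.4% of the members, 28 transcripts, had another transcript under their number, against 38.7% of all transcripts of at least 1 TPM. There were 6 numbers with 2 or more members, 13 members in all, and reads of such transcripts may be split between them by the quantification.

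Variation between libraries of a group was small. The median within-group SD of log2(TPM + 1) was 0.0393 for the members, against 0.0536 for transcripts of 100 to 1000 TPM, 0.0695 for those of 10 to 100 TPM and 0.204 for those of 1 to 10 TPM. It was under 0.1 for 120 members. The members' median SD by group at 1, 3 and 4 weeks was 0.0422, 0.0310 and 0.0409 in *hippo (RNAi)* animals and 0.0461, 0.0260 and 0.0227 in *gfp (RNAi)* animals. The largest SDs were those of dd_Smed_v6_10_0_1 (0.250), dd_Smed_v6_14_0_1 (0.167) and dd_Smed_v6_427_0_10 (0.144). The first component of the members' deviations from their group means held 36.45% of the variance, and it set library 249O (0.487) apart from 251O (-0.483) within the 1-week controls and 254O (0.350) apart from 253O (-0.390) within the 1-week *hippo (RNAi)* group.

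A few members ranked differently by treatment. dd_Smed_v6_2_1_1 was the highest member in 14 libraries. dd_Smed_v6_34_0_2 was above it in the other 4, which were the 3-week *hippo (RNAi)* library 266O and all 3 *hippo (RNAi)* libraries of 4 weeks. At 3 weeks dd_Smed_v6_2_1_1 had 20273, 24096 and 22261 TPM in *hippo (RNAi)* libraries, against 24893, 24879 and 26407 TPM in *gfp (RNAi)* libraries. These groups did not overlap, but the difference of -0.20 (log2, SE 0.08) did not pass the test (limma adjusted p = 0.15). At 1 week its values spread over 22720, 19437 and 23324 TPM in *hippo (RNAi)* and 24363, 22403 and 20400 TPM in *gfp (RNAi)* libraries, so its spread within a group was as wide as the difference at 3 weeks. dd_Smed_v6_34_0_2 had 21472, 21262 and 21239 TPM in *hippo (RNAi)* libraries at 3 weeks, against 19396, 18927 and 19725 TPM in *gfp (RNAi)* libraries, a difference of 0.14 (SE 0.05) with an adjusted p of 0.0638. Its call depended on the processing, since it passed with a pseudocount of 0.1 TPM (adjusted p = 0.035), a pseudocount of 10 TPM (0.037), a filter at 10 TPM (0.005) or array weights (0.040).

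**Figure D2:**
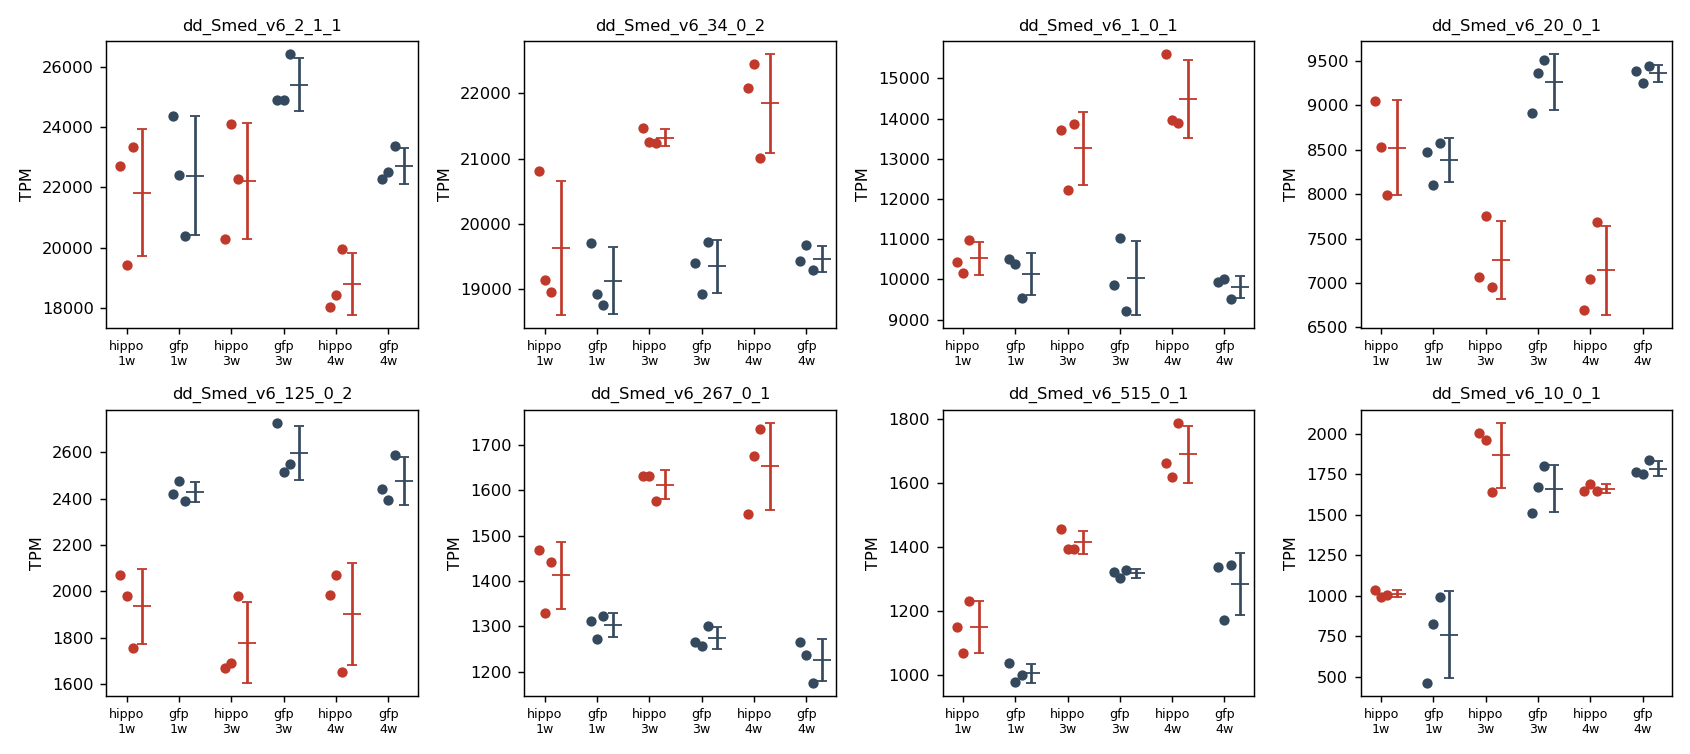
TPM of 8 members in each library by group; points are libraries, bars the group mean ± SD (n = 3), and the vertical axes differ and do not start at 0. dd_Smed_v6_1_0_1 and dd_Smed_v6_267_0_1 are higher and dd_Smed_v6_20_0_1 and dd_Smed_v6_125_0_2 lower in all *hippo (RNAi)* libraries of 3 weeks than in the controls of that week, and dd_Smed_v6_10_0_1 is lowest in the 6 libraries of 1 week.

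To ask which members responded to *hippo* RNAi early, treatments were compared at 1 week. None of the 137 members passed the test (limma, Benjamini-Hochberg adjustment over the 28735 transcripts that averaged 1 TPM or more, FDR 0.05), against 0.849% of all transcripts tested. At an unadjusted p under 0.05 there were 20 members (14.6%), against 12.5% of all. Among transcripts of 100 to 1000 TPM the fraction was 25.1% and among those of 10 to 100 TPM 17.8%. The median difference was -0.01 for the members and 0.02 for all transcripts on the log2(TPM + 1) scale, and 120 members differed by less than 0.1. The groups did not overlap for 20 members, 10 higher and 10 lower, against 14.9% of all transcripts (9.02% higher and 5.88% lower). The members' median SE was 0.0344, against 0.115 over all transcripts.

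At 3 weeks 48 of the 137 members (35.0%) passed the same test, against 15.5% of all transcripts tested. Of these 41 were lower in *hippo (RNAi)* animals, against 5.27% of all transcripts, and 7 were higher, against 10.2% of all. Among transcripts of 100 to 1000 TPM 52.4% passed, among those of 10 to 100 TPM 29.8% and among those of 1 to 10 TPM 5.44%, so the members' share of calls lay between these classes although the rule had removed their 9 largest changes at 4 weeks. The differences were small. Those called ranged from 0.0746 to 0.549 in absolute log2 units with a median of 0.225, and 30 of them reached 0.2. The median over all members was -0.06, against 0.00 over all transcripts, and 106 members (77.4%) lay below 0, against 49.3% of all. The groups did not overlap for 97 members, 82 lower and 15 higher, against 31.7% of all transcripts (14.0% lower and 17.7% higher). Without library 259O 30 members were called, and without 266O 31. The 4 highest library codes (266 to 269) belong to 2 of the 3 *hippo (RNAi)* libraries of 3 weeks and 2 of the 3 of 4 weeks. The labels name no batch for them. Leaving out these 4 keeps 260O as the only *hippo (RNAi)* library of 3 weeks. For calls lost in that setting, a difference tied to the codes cannot be told apart from the smaller group.

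**Figure D3:**
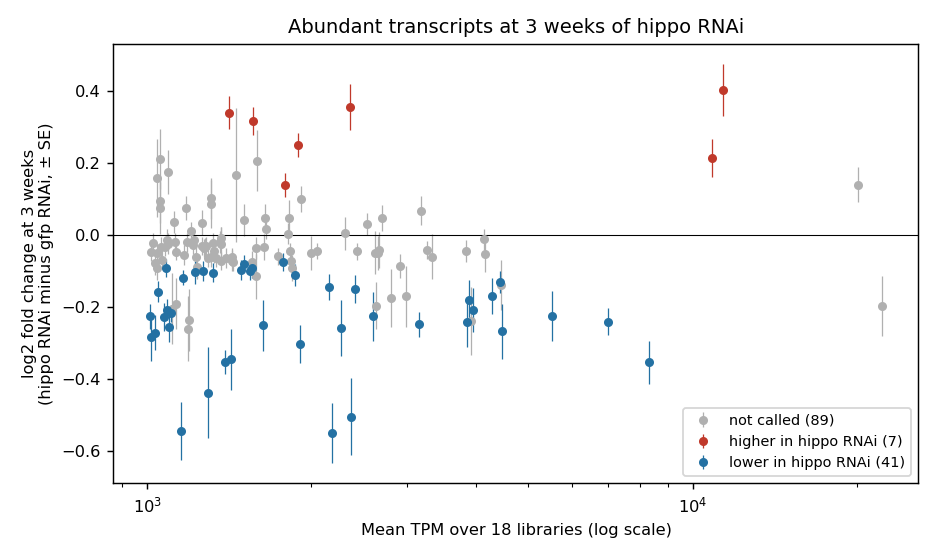
Difference between *hippo (RNAi)* and *gfp (RNAi)* at 3 weeks (log2(TPM + 1), limma estimate ± SE) against mean TPM over 18 libraries (log scale), 1 point per member. The 41 members called lower reach down to -0.55, the 7 called higher up to 0.40, and the 89 not called lie mostly near 0.

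Of the members that rose at 3 weeks, dd_Smed_v6_1_0_1 changed most. It had 13709, 12223 and 13860 TPM in *hippo (RNAi)* libraries, against 9872, 11037 and 9225 TPM in *gfp (RNAi)* libraries (0.40, SE 0.07, adjusted p = 0.000955). At 1 week it had 10431, 10158 and 10973 TPM in *hippo (RNAi)* and 10501, 10379 and 9544 TPM in *gfp (RNAi)* libraries, a difference of 0.05, and at 4 weeks 15599, 13954 and 13882 TPM in *hippo (RNAi)* and 9931, 10002 and 9507 TPM in *gfp (RNAi)* libraries. The control libraries kept a similar level at all times, and among the 18 libraries only the *hippo (RNAi)* libraries of 3 and 4 weeks stood above it. dd_Smed_v6_3_0_1 had 11128, 11892 and 11336 TPM in *hippo (RNAi)*, against 9915, 9780 and 9919 TPM in *gfp (RNAi)* libraries at 3 weeks (0.21, SE 0.05, adjusted p = 0.0108). Its difference at 1 week was 0.16 (adjusted p = 0.196), and its 3-week call was lost without library 267O (0.19, adjusted p = 0.0534) and without the libraries numbered 266 to 269 (0.20, adjusted p = 0.214).

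Another 3 members, of lower abundance, also rose. dd_Smed_v6_267_0_1 had 1631, 1631 and 1576 TPM in *hippo (RNAi)* libraries at 3 weeks, against 1265, 1256 and 1301 TPM in *gfp (RNAi)* libraries (0.34, SE 0.04, adjusted p = 6.04e-05). dd_Smed_v6_75_0_1 had 1768, 1740 and 1823 TPM in *hippo (RNAi)*, against 1419, 1475 and 1387 TPM in *gfp (RNAi)* libraries (0.32, SE 0.04, adjusted p = 3.39e-05). dd_Smed_v6_54_0_1 had 2040, 2111 and 2026 TPM in *hippo (RNAi)*, against 1714, 1751 and 1733 TPM in *gfp (RNAi)* libraries (0.25, SE 0.03, adjusted p = 6.79e-05). In each of the 3 the lowest *hippo (RNAi)* library lay above the highest control already at 1 week, where the values of dd_Smed_v6_54_0_1 were 1840, 1895 and 1963 TPM in *hippo (RNAi)* and 1674, 1742 and 1791 TPM in *gfp (RNAi)* libraries, but the 1-week difference of 0.13 did not pass (adjusted p = 0.0898). At 4 weeks dd_Smed_v6_54_0_1 had 2087, 2130 and 2223 TPM in *hippo (RNAi)* and 1755, 1786 and 1747 TPM in *gfp (RNAi)* libraries.

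Of the members that fell, the pair dd_Smed_v6_125_0_2 and dd_Smed_v6_125_0_1, which share an assembly number, and dd_Smed_v6_474_0_3 had the largest differences. dd_Smed_v6_125_0_2 had 1667, 1691 and 1979 TPM in *hippo (RNAi)* libraries at 3 weeks, against 2728, 2513 and 2548 TPM in *gfp (RNAi)* libraries (-0.55, SE 0.08, adjusted p = 0.000237). dd_Smed_v6_125_0_1 had 867.5, 890.6 and 1034 TPM in *hippo (RNAi)*, against 1406, 1309 and 1345 TPM in *gfp (RNAi)* libraries (-0.54, SE 0.08, adjusted p = 0.000184). At 1 week dd_Smed_v6_125_0_2 had 2072, 1978 and 1756 TPM in *hippo (RNAi)*, against 2421, 2475 and 2390 TPM in *gfp (RNAi)* libraries, a separation of -0.33 that did not pass (adjusted p = 0.0869). dd_Smed_v6_474_0_3 had 1734, 1950 and 2193 TPM in *hippo (RNAi)*, against 2932, 2576 and 2800 TPM in *gfp (RNAi)* libraries at 3 weeks (-0.50, SE 0.11, adjusted p = 0.0038). The 3 kept a lower level in *hippo (RNAi)* animals at all weeks, with differences at 4 weeks of -0.39, -0.34 and -0.48 in the order named here. Without the libraries numbered 266 to 269 the 3-week difference of dd_Smed_v6_474_0_3 was -0.33 (adjusted p = 0.081).

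dd_Smed_v6_14_0_1, one of the 3 members with the largest within-group SD, was lower at 3 weeks but not at 4 weeks. It had 1040, 893.9 and 1031 TPM in *hippo (RNAi)* libraries at 3 weeks, against 1279, 1432 and 1298 TPM in *gfp (RNAi)* libraries (-0.44, SE 0.13, adjusted p = 0.0268). At 4 weeks it had 1505, 1268 and 1295 TPM in *hippo (RNAi)* and 1262, 1454 and 1488 TPM in *gfp (RNAi)* libraries, which overlapped. The 3-week call was lost without 257O, 258O, 259O or 267O (adjusted p 0.0501 to 0.109, -0.47 to -0.37) and without the libraries numbered 266 to 269 (-0.37, adjusted p = 0.314). dd_Smed_v6_427_0_10, the most variable after it, had 1067, 992.2 and 1151 TPM in *hippo (RNAi)* and 876.8, 983.7 and 1019 TPM in *gfp (RNAi)* libraries at 3 weeks, a difference of 0.16 that did not pass (adjusted p = 0.416).

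Among the 10 most abundant members 7 passed at 3 weeks, 2 higher and 5 lower. The 5 lower ones were dd_Smed_v6_20_0_1, dd_Smed_v6_15_0_1, dd_Smed_v6_76_0_1, dd_Smed_v6_90_0_2 and dd_Smed_v6_50_0_1. dd_Smed_v6_76_0_1 had 5015, 5579 and 5260 TPM in *hippo (RNAi)*, against 6073, 5987 and 6440 TPM in *gfp (RNAi)* libraries (-0.22, adjusted p = 0.0417). dd_Smed_v6_90_0_2 had 3511, 3943 and 3882 TPM in *hippo (RNAi)*, against 4664, 4322 and 4647 TPM in *gfp (RNAi)* libraries (-0.27, SE 0.08, adjusted p = 0.0269). dd_Smed_v6_50_0_1 had 4192, 4262 and 4102 TPM in *hippo (RNAi)*, against 4618, 4555 and 4565 TPM in *gfp (RNAi)* libraries (-0.13, SE 0.03, adjusted p = 0.00689). In all 3 the highest *hippo (RNAi)* library lay below the lowest control. The call of dd_Smed_v6_76_0_1 was lost without 257O, 258O, 259O, 266O or 260O (adjusted p 0.0604 to 0.159, -0.24 to -0.19) and that of dd_Smed_v6_90_0_2 without 257O, 259O or 266O (adjusted p 0.0885 to 0.125, -0.25 to -0.21). With no filter dd_Smed_v6_76_0_1 was lost (adjusted p = 0.0702), and with TPM summed over the assembly number dd_Smed_v6_90_0_2 was (-0.21, adjusted p = 0.0528). Without the libraries numbered 266 to 269 all 3 were lost, with adjusted p of 0.207 for dd_Smed_v6_76_0_1, 0.330 for dd_Smed_v6_90_0_2 and 0.0590 for dd_Smed_v6_50_0_1. dd_Smed_v6_51_1_2, the last of the 10, had 4192, 4591 and 4379 TPM in *hippo (RNAi)* and 4780, 4742 and 4953 TPM in *gfp (RNAi)* libraries, and its difference of -0.14 did not pass (adjusted p = 0.232).

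Averaged over 1 and 3 weeks, 38 members (27.7%) passed, 29 lower and 9 higher in *hippo (RNAi)* animals. Of all transcripts tested 14.0% passed (4.48% lower and 9.51% higher). Among transcripts of 100 to 1000 TPM 47.6% passed and among those of 10 to 100 TPM 26.2%. The 4 largest rises were those of dd_Smed_v6_267_0_1 (0.23, SE 0.03, adjusted p = 0.000118), dd_Smed_v6_1_0_1 (0.23, SE 0.05, adjusted p = 0.00611), dd_Smed_v6_75_0_1 (0.22) and dd_Smed_v6_54_0_1 (0.19). The 4 largest falls were those of dd_Smed_v6_125_0_2 (-0.44, SE 0.06, adjusted p = 8.73e-05), dd_Smed_v6_125_0_1 (-0.43), dd_Smed_v6_474_0_3 (-0.39) and dd_Smed_v6_14_0_1 (-0.30, adjusted p = 0.0317). The last was lost without 251O, 258O, 259O, 254O or 267O (adjusted p 0.0508 to 0.0854, -0.31 to -0.22), with only the compared groups in the fit (adjusted p = 0.0607) and without the libraries numbered 266 to 269 (-0.27, adjusted p = 0.204). The comparisons at 1 and at 3 weeks used different libraries. Of the 41 members called lower at 3 weeks 32 lay below 0 at 1 week, and of the 7 called higher 6 lay above 0. Among all 137 members 82 (59.9%) lay below 0 at 1 week and 55 above. The average holds the 3-week libraries, and 34 of its 38 calls were also called at 3 weeks, against 0 at 1 week.

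**Figure D4:**
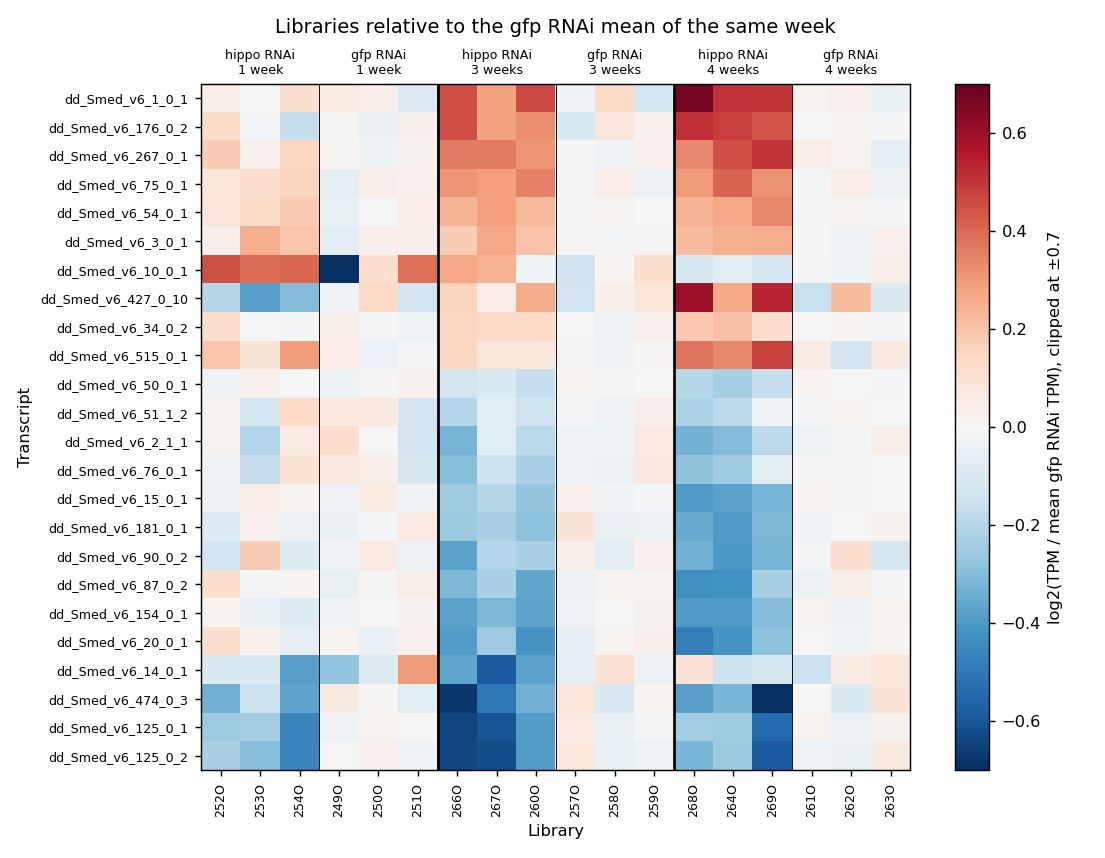
log2 of TPM over the mean of the *gfp (RNAi)* libraries of the same week, for the 24 named members (down, ordered by their difference at 3 weeks) in the 18 libraries (across, *hippo (RNAi)* left of *gfp (RNAi)* within each week); colour is clipped at ±0.7. The *hippo (RNAi)* libraries of 3 and 4 weeks are red for the members that rose, such as dd_Smed_v6_1_0_1, and blue for those that fell, such as dd_Smed_v6_125_0_2, while those of 1 week are paler for most members.

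Whether the response differed between the weeks was tested as the difference at 3 weeks minus that at 1 week. It passed for 10 members (7.30%), 9 more negative and 1 more positive at 3 weeks. Of all transcripts tested 5.11% passed (1.34% more negative and 3.77% more positive). Among transcripts of 100 to 1000 TPM 24.6% passed, among those of 10 to 100 TPM 10.1% and among those of 1 to 10 TPM 1.19%. The members were thus called less often than the 2 classes nearest in abundance. dd_Smed_v6_20_0_1 had 7066, 7758 and 6951 TPM in *hippo (RNAi)* libraries at 3 weeks, against 8912, 9366 and 9510 TPM in *gfp (RNAi)* libraries (-0.35, SE 0.06, adjusted p = 0.000549). At 1 week its values of 9054, 8526 and 7989 TPM in *hippo (RNAi)* and 8469, 8107 and 8574 TPM in *gfp (RNAi)* libraries overlapped, and the response differed by -0.38 (SE 0.08, adjusted p = 0.0155). dd_Smed_v6_15_0_1 had 6366, 6595 and 6288 TPM in *hippo (RNAi)*, against 7736, 7490 and 7507 TPM in *gfp (RNAi)* libraries at 3 weeks, and 6671, 7085 and 6939 TPM in *hippo (RNAi)* and 6737, 7107 and 6741 TPM in *gfp (RNAi)* libraries at 1 week (difference in response -0.25, SE 0.05, adjusted p = 0.0107). In both the libraries of the treatments overlapped at 1 week and did not at 3 weeks. The difference in response of dd_Smed_v6_15_0_1 was lost with only the compared groups in the fit (-0.25, adjusted p = 0.0507) and without the libraries numbered 266 to 269 (-0.28, adjusted p = 0.0720). At 4 weeks they remained apart, with 6700, 7046 and 7685 TPM in *hippo (RNAi)* and 9384, 9257 and 9448 TPM in *gfp (RNAi)* libraries for dd_Smed_v6_20_0_1.

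dd_Smed_v6_154_0_1 had the lowest adjusted p of the named members at 3 weeks. It had 1200, 1249 and 1203 TPM in *hippo (RNAi)*, against 1526, 1554 and 1580 TPM in *gfp (RNAi)* libraries (-0.35, SE 0.03, adjusted p = 2.97e-06), and 1404, 1337 and 1300 TPM in *hippo (RNAi)* and 1365, 1379 and 1405 TPM in *gfp (RNAi)* libraries at 1 week. Its response differed between the weeks by -0.31 (SE 0.05, adjusted p = 0.00132). dd_Smed_v6_87_0_2 had 1676, 1785 and 1622 TPM in *hippo (RNAi)*, against 2039, 2117 and 2102 TPM in *gfp (RNAi)* libraries at 3 weeks, and a difference in response of -0.34 (SE 0.07, adjusted p = 0.0136). In both, all *gfp (RNAi)* libraries of 3 weeks were above those of 1 week. The *hippo (RNAi)* libraries of 3 weeks were all below those of 1 week for dd_Smed_v6_154_0_1 and overlapped them for dd_Smed_v6_87_0_2.

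The 2 remaining named differences in response lay near the threshold. dd_Smed_v6_176_0_2, the 1 member with a more positive response, had 2863, 2547 and 2626 TPM in *hippo (RNAi)*, against 1941, 2207 and 2129 TPM in *gfp (RNAi)* libraries at 3 weeks (0.36, SE 0.06, adjusted p = 0.000968), and its response differed by 0.37 (SE 0.09, adjusted p = 0.0262). That call was lost without 249O, 251O, 257O, 253O or 266O (adjusted p 0.0502 to 0.0740, 0.32 to 0.37), with only the compared groups in the fit (adjusted p = 0.0929), without the libraries numbered 266 to 269 (0.34, adjusted p = 0.193), and with TPM summed over the assembly number, where the difference was 0.23 (adjusted p = 0.0602). Leaving out libraries 266 to 269 ended its 3-week call too (0.33, adjusted p = 0.0637). Its partner under the same assembly number, dd_Smed_v6_176_0_1, differed by -0.02 at 3 weeks (adjusted p = 0.777). dd_Smed_v6_181_0_1 had 971.7, 994.9 and 953 TPM in *hippo (RNAi)*, against 1237, 1122 and 1129 TPM in *gfp (RNAi)* libraries at 3 weeks (-0.26, SE 0.04, adjusted p = 0.000411). Its difference in response of -0.23 (SE 0.06, adjusted p = 0.0384) was lost without any 1 of 249O, 250O, 257O, 253O, 254O, 266O and 260O (adjusted p 0.0647 to 0.0981, -0.23 to -0.18), with no filter (adjusted p = 0.0577), with only the compared groups in the fit (adjusted p = 0.103) and without the libraries numbered 266 to 269 (-0.26, adjusted p = 0.145). Over all members the count was 4 without 257O, 5 without 253O, 266O or 260O, and 6 without 250O.

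In controls 2 members (1.46%) were higher at 3 weeks than at 1 week and 0 lower. Of all transcripts tested 0.143% passed (0.0592% higher and 0.0835% lower). Among transcripts of 100 to 1000 TPM 1.71% passed and among those of 10 to 100 TPM 0.139%. dd_Smed_v6_10_0_1 had 1508, 1674 and 1800 TPM at 3 weeks, against 462, 824.9 and 990.4 TPM at 1 week (1.20, SE 0.19, adjusted p = 0.0223). The 1-week control 249O was the lowest value of any member in any library, and the 3 *gfp (RNAi)* libraries of 1 week spread over more than a 2-fold range. dd_Smed_v6_515_0_1 had 1321, 1301 and 1326 TPM in controls at 3 weeks, against 1036, 978 and 999.2 TPM at 1 week (0.39, SE 0.06, adjusted p = 0.0223). At an unadjusted p under 0.05 there were 36 members (26.3%), against 10.6% of all transcripts. Among transcripts of 100 to 1000 TPM the fraction was 30.2% and among those of 10 to 100 TPM 14.4%. Both calls were lost without 257O, 258O or 259O, and that of dd_Smed_v6_515_0_1 also without 251O (adjusted p 0.0704 to 0.106, 1.14 to 1.26, for dd_Smed_v6_10_0_1 and 0.0594 to 0.106, 0.38 to 0.40, for dd_Smed_v6_515_0_1). Both were also lost with only the compared groups in the fit (adjusted p = 0.326 for dd_Smed_v6_10_0_1 and 0.0616 for dd_Smed_v6_515_0_1) and without the libraries numbered 266 to 269 (adjusted p = 0.112 and 0.0942 in the same order). The groups did not overlap for 38 members, 29 higher and 9 lower at 3 weeks, against 14.6% of all transcripts (5.69% higher and 8.95% lower).

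Within *hippo (RNAi)* animals 19 members (13.9%) passed between 3 weeks and 1 week, 6 higher and 13 lower at 3 weeks. Of all transcripts tested 8.07% passed (4.98% higher and 3.09% lower). Among transcripts of 100 to 1000 TPM 34.8% passed and among those of 10 to 100 TPM 15.5%. The 2 that rose in controls also passed here. dd_Smed_v6_10_0_1 had 2004, 1963 and 1638 TPM at 3 weeks, against 1035, 994.1 and 1002 TPM at 1 week (0.88, adjusted p = 0.00726), and dd_Smed_v6_515_0_1 had 1456, 1393 and 1392 TPM at 3 weeks, against 1148, 1067 and 1229 TPM at 1 week (0.30, adjusted p = 0.00319). Without the libraries numbered 266 to 269 both calls were lost (0.70, adjusted p = 0.303, for dd_Smed_v6_10_0_1 and 0.28, adjusted p = 0.125, for dd_Smed_v6_515_0_1), and with TPM summed over the assembly number that of dd_Smed_v6_10_0_1 was lost (0.65, adjusted p = 0.0652). Between the treatments at 3 weeks neither passed (0.17, adjusted p = 0.657, and 0.10, adjusted p = 0.287). The other 4 that were higher were dd_Smed_v6_1_0_1 (0.33), dd_Smed_v6_267_0_1 (0.19), dd_Smed_v6_75_0_1 (0.19) and dd_Smed_v6_54_0_1 (0.12). The 13 that were lower included dd_Smed_v6_90_0_2 (-0.42), which had 3511, 3943 and 3882 TPM at 3 weeks, against 4646, 5755 and 4796 TPM at 1 week, and dd_Smed_v6_181_0_1 (-0.28). The groups did not overlap for 58 members, against 24.1% of all transcripts. Without 253O or 266O 12 members were called, and without the libraries numbered 266 to 269 3 were.

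At 4 weeks, where the rule used the contrast, 116 members were lower in *hippo (RNAi)* animals and 21 higher, within -0.58 and 0.56 on the log2 scale. The median was -0.11, against 0.00 over all transcripts, after -0.06 at 3 weeks and -0.01 at 1 week. The groups did not overlap for 115 members, 100 lower and 15 higher, against 36.7% of all transcripts (16.5% lower and 20.2% higher). These values describe the members and were not tested. In controls 103 members had a higher mean at 4 weeks than at 1 week, with a median of 0.04, against -0.01 over all transcripts.

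**Figure D5:**
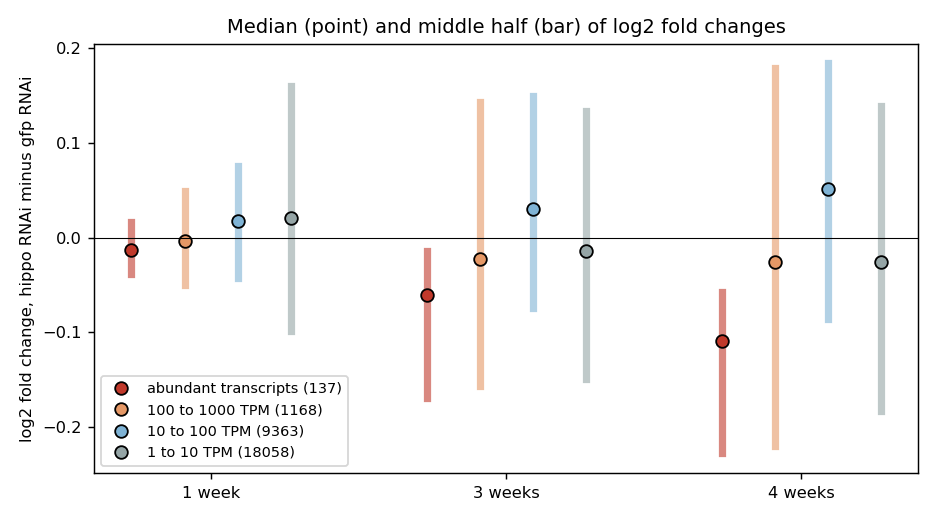
Median (points) and interquartile range (bars) of the log2 difference between *hippo (RNAi)* and *gfp (RNAi)* animals at each week, for the 137 abundant transcripts and for transcripts of 100 to 1000, 10 to 100 and 1 to 10 TPM. The members' median is -0.01, -0.06 and -0.11 at 1, 3 and 4 weeks, and their range at 4 weeks is bounded by the rule.

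Several members varied together over the 18 libraries. The measure was Pearson's r of log2(TPM + 1), given as a description since the libraries share groups and a fixed total. dd_Smed_v6_2_1_1 was most like dd_Smed_v6_13_0_1 (r = 0.98) and dd_Smed_v6_21_0_1 (0.97), and after the group means were taken out the values were 0.95 and 0.96. dd_Smed_v6_76_0_1 was most like dd_Smed_v6_321_0_1 (0.99, and 0.97 within groups), dd_Smed_v6_85_0_1 (0.98 and 0.97) and dd_Smed_v6_51_1_2 (0.98 and 0.98). These sets therefore moved together also among libraries of the same treatment and week. dd_Smed_v6_125_0_2 was close to its partner dd_Smed_v6_125_0_1 (0.99 and 0.96) and to dd_Smed_v6_474_0_3 (0.91 and 0.84), and dd_Smed_v6_20_0_1 to dd_Smed_v6_154_0_1 (0.94 and 0.88). In contrast, dd_Smed_v6_75_0_1 and dd_Smed_v6_54_0_1 were alike over all libraries (0.95) but less so within groups (0.43), and dd_Smed_v6_1_0_1 and dd_Smed_v6_75_0_1 had 0.90 and 0.22.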

How the data were processed

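Total RNA of whole planarians was extracted with TRIzol, made into stranded TruSeq mRNA libraries and sequenced as paired ends on a HiSeq 2000. The deposited values are TPM, which the authors obtained by pseudoaligning reads to the dd_Smed_v6 assembly (kallisto 0.43.0). TPM have the same total in each library, so depth and counting error are unknown and each value is relative to all others. How reads were trimmed or filtered is not given in the sources used here. For differential expression sleuth and DESeq2 were run by the authors, and none of that output entered here.

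All 18 columns were matched to a sample by library code, and groups came from the treatment label. The members, lists and tests were chosen with earlier results of these data known. From the deposited TPM, log2(TPM + 1) of the 28735 transcripts averaging 1 TPM or more was fitted in limma 3.58.1 (R 4.3.3) with a mean per group and an intensity trend. The 6 groups shared 1 estimate of the spread, and p-values were adjusted over all transcripts (Benjamini-Hochberg, FDR 0.05). Of 6 comparisons tested, none used a 4-week group. Fold changes are on the log2(TPM + 1) scale. Nothing says whether a group's pools came from separate experiments, so p-values measure the spread between these libraries, which may be technical. Named were the 10 highest members, the 4 largest rises and 4 largest falls of the average effect, up to 3 each way of the control change, up to 6 differences in response, the 3 largest within-group SDs and the neighbours of each threshold. The script was tested on simulated data. Alternatives were other pseudocounts, filters, scalings, thresholds, weights, library sets and summing by assembly number.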

Additional observations from a re-analysis of the deposited data

Results flagged for a closer look

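In 6 members the effect of *hippo* RNAi differed between 3 weeks and 1 week by a test of the difference itself (limma interaction contrast, adjusted over all transcripts tested). The response at 3 weeks minus that at 1 week was -0.38 for dd_Smed_v6_20_0_1, -0.25 for dd_Smed_v6_15_0_1, -0.34 for dd_Smed_v6_87_0_2, -0.31 for dd_Smed_v6_154_0_1, -0.23 for dd_Smed_v6_181_0_1 and 0.37 for dd_Smed_v6_176_0_2. They are the 6 with the largest absolute value among the 10 members that passed. The calls of dd_Smed_v6_15_0_1, dd_Smed_v6_176_0_2 and dd_Smed_v6_181_0_1 were lost under the settings named above. With only the compared groups in the fit 3 members passed, and at FDR 0.01 only 1 did. In each of them the 3-week libraries of *hippo (RNAi)* and *gfp (RNAi)* did not overlap. No rule was applied to flag samples far from their group, since each group held 3 libraries. The component of deviations from group means given above is a description.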

How the results depend on the processing

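No paired analysis was possible because the labels carry library codes but no replicate numbers. No call reversed. With no filter 5 members differed in response between the weeks. With a filter at 10 TPM 5 were called at 1 week, 21 in the difference between weeks and 11 in the control change. At FDR 0.01 the counts were 23 at 3 weeks, 18 in the average, 1 in the difference between weeks, 0 in the control change and 10 in the *hippo (RNAi)* change. With a change of at least 0.2 they were 30 at 3 weeks, 8 in the average, 6 in the difference and 11 in the *hippo (RNAi)* change. With only the compared groups in the fit they were 3 in the difference, 0 in the control change and 4 in the *hippo (RNAi)* change. Without the libraries numbered 266 to 269 they were 2 at 1 week, 19 at 3 weeks, 18 in the average, 4 in the difference, 0 in the control change and 3 in the *hippo (RNAi)* change. With TPM summed over an assembly number 1 was called at 1 week. Another set held the 145 transcripts that averaged 1000 TPM or more over the 12 libraries of 1 and 3 weeks. The limit on change at 4 weeks was not applied to it, so it is close to the set of all 146. The share differed at 3 weeks by -0.971 points with a limit of 2000 TPM, -0.807 with all 146 transcripts and -0.995 with these 145. At 4 weeks it differed by -1.30, -1.06 and -1.27 in the same order. The *hippo (RNAi)* share at 3 weeks minus 1 week changed sign, to 0.0904, with all 146 and was -0.0591 with the 145. With all 146 the share also holds the 9 left out, which by themselves differed by 0.617 points at 3 weeks. The cause of the other shifts was not tested, and some settings hold fewer libraries or transcripts.

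Leaving out single libraries gave 0 to 1 members at 1 week, 30 to 41 at 3 weeks, 27 to 38 in the average, 4 to 11 in the difference, 0 to 2 in the control change and 12 to 18 in the *hippo (RNAi)* change. The share then differed by -0.323 to 0.0933 points at 1 week, -1.66 to -1.21 at 3 weeks and -2.15 to -1.86 at 4 weeks, and between 3 weeks and 1 week by 0.662 to 1.08 in controls and -0.673 to -0.221 in *hippo (RNAi)* animals. Median-ratio scaling called 51 members at 3 weeks (44 lower, 7 higher) and 8 in the difference between weeks, 6 more negative and 2 more positive, against 9 and 1 without it. Scaling to the transcripts under 1000 TPM, chosen after seeing the data, called 62 at 3 weeks (55 lower, 7 higher). The 146 abundant transcripts took 34.64% in *hippo (RNAi)* and 35.44% in *gfp (RNAi)* animals at 3 weeks. This scaling therefore lowered every transcript in *hippo (RNAi)* relative to controls, and the median over all moved from 0.00303 to -0.0118. Extra lower calls were thus fixed in advance by the share and are no separate evidence. Depth could not be used to judge precision, since TPM keep none.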
